A study of Mus musculus with 8 samples.

Results

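The calcium/calmodulin-dependent protein kinases (CaM kinases) and neurogranin were examined in the hippocampus of BTBR mice, an inbred strain used as a mouse model of autism, and of B6 mice. The set held 10 genes: the CaMKII subunit genes Camk2a, Camk2b, Camk2d and Camk2g, the inhibitor gene Camk2n1, the kinase genes Camk1 and Camk4, the kinase kinase genes Camkk1 and Camkk2, and Nrgn. Its members were all probes that the array files name after one of these genes, which gave 20 of 41174 probes and 10 of 27373 gene names. Of the 20 probes, 18 passed the filter on dim probes, which kept 27982 probes of the whole table. The B6 group was 4 wild type C57BL/6J mice and the BTBR group was 4 mice of the strain BTBR T+ Itpr3tf/J, whose labels also carry C57BL/6J as strain background. All 8 mice were males of 5 months, no drug treatment is recorded for either group, and RNA of the whole hippocampus of each mouse was labeled with Cy3 and hybridized to its own single-color Agilent array. The arrays sat on 2 slides, with replicates 1 and 2 of each strain on slide 1 and the remaining replicates on slide 2. As strains differ at many loci and no allele is isolated here, a strain difference cannot be assigned to any of them.

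Calcium that enters a neuron binds calmodulin, and calcium-loaded calmodulin opens the catalytic site of the CaM kinases. CaMKII is an oligomer of alpha, beta, gamma and delta subunits that can phosphorylate itself and so stay active after calcium has fallen, and its alpha and beta forms are abundant at excitatory synapses of the hippocampus, where they are required for long-term potentiation. CaMKI and CaMKIV work in a cascade, in which the kinase kinases CaMKK1 and CaMKK2 phosphorylate them, and CaMKIV acts in the nucleus on the transcription factor CREB. Neurogranin is a small postsynaptic protein that holds calmodulin when calcium is low and releases it when calcium rises.

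Each gene was read by probes of 60 bases, between 1 and 5 for a gene, and the array files list RefSeq transcripts for 16 of the 20 probes. All positions are those of mm9 in the array files, and all 10 symbols were found in the RefSeq gene list of GRCm38.p6. The sequences shown are those of the probes on which the sections on Camk1 and Camk2d turn and of the 2 probes that could not be tested. Both Camk1 probes match the minus strand of chromosome 6, at chr6:113286369-113286428 and chr6:113287209-113287268, and both are assigned to NM_133926. The first Camk2d probe spans chr3:126537519-126541191 on the plus strand, a distance longer than the probe, so that it joins sequence across a splice junction, and it is assigned to the 3 transcripts NM_001025439, NM_023813 and NM_001025438.
Camk1 A_51_P106259: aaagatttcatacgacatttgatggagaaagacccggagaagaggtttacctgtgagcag
Camk1 A_51_P106263: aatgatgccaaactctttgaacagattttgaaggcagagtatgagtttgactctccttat
Camk2d A_51_P510817: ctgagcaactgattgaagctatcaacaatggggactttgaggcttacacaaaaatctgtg
Camk2b A_51_P376776: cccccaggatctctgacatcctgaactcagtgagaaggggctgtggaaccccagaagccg
Camk2d A_52_P169412: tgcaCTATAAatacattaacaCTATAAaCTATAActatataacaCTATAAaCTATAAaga
The capitals mark the letters CTATAA, searched on both strands with overlaps counted. These letters were found in 3.1% of all 41174 probes, and 1 probe, the Camk2d probe shown, held them at least 4 times. The last pair of probes lie at chr11:5877884-5877943 (minus strand) and chr3:126521124-126521183 (plus strand), and no RefSeq transcript is listed for either. They were the member probes with the highest and the lowest GC content, 60% and 20%, against a median of 40% over all probes. The Camk2b probe A_51_P376776 was well above background on 1 of 8 arrays (B6 replicate 3) and the Camk2d probe A_52_P169412 on 1 of 8 (BTBR replicate 3), so that neither has a tested difference or a fold. The longest run of bases that probes of different member genes shared was 10.

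The comparison asked whether the CaM kinase genes and Nrgn are expressed at another level in the BTBR hippocampus than in B6. No member changed at the threshold used for the whole table. Limma called 0 of the 18 tested probes at an adjusted p under 0.05, whereas 7.61% of all 27982 probes were called, 3.31% as higher and 4.30% as lower in BTBR. The rank product, the test named in the study's methods, also called 0 of the 18 at a percentage of false prediction (pfp) of 0.05 or less, where the share over all probes was 3.94%. At an unadjusted limma p under 0.05 there was 1 of 18, the Nrgn probe, and 18.5% of all probes passed that threshold. The same probe was the 1 of 18 for which the arrays of the strains did not overlap, against 14.2% of all probes, 6.91% with BTBR higher and 7.27%, as for Nrgn, with BTBR lower. Levels are given below as normalized log2 intensity and differences as BTBR minus B6 on the same scale.

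The members combined wide differences between strain means with a wide spread between mice. The median absolute difference was 0.22 over the 18 probes and 0.10 over all tested probes. The median SD between mice of a strain was 0.36 for the members and 0.13 for all tested probes. Of the 18 probes, 13 were higher and 5 lower on average in BTBR, with a median difference of 0.13, and over all tested probes the median was 0.01. The 5 lower probes were those of Nrgn, Camkk1, Camk2b and Camk2g and 1 of the 2 tested probes of Camk2a. The 95% limma interval of every tested member probe but that of Nrgn included 0.

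**Figure D1:**
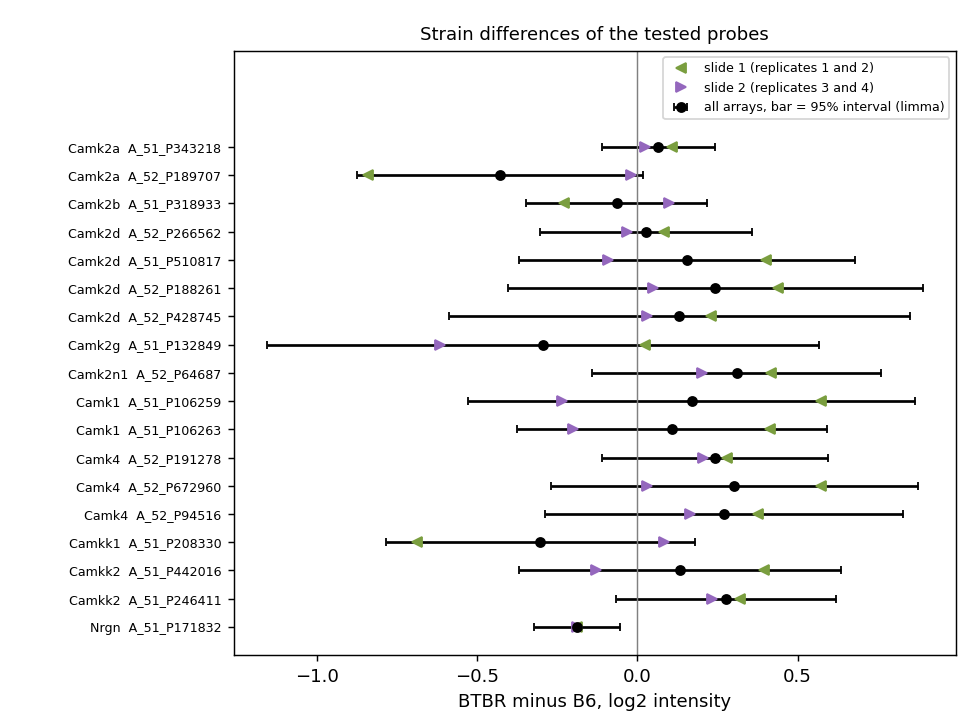
Difference BTBR minus B6 in log2 intensity (horizontal axis) for the 18 tested probes (vertical axis), with black points and 95% limma intervals over all arrays and colored triangles for slide 1 and slide 2. The Nrgn interval lies below 0 and both of its slides give -0.19, whereas Camk2a A_52_P189707 and Camkk1 are at -0.84 and -0.69 on slide 1 and at -0.02 and 0.08 on slide 2.

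The alpha subunit gene Camk2a lies on chromosome 18 and was read by 2 probes. Probe A_52_P189707, for which 3 RefSeq transcripts including NM_177407 are listed, read 16.60, 16.44, 16.37 and 16.47 on B6 replicates 1 to 4 and 15.76, 15.59, 16.59 and 16.21 on BTBR replicates 1 to 4. BTBR replicates 1, 2 and 4 were below every B6 array, BTBR replicate 3 was at the top of the B6 range, and the groups therefore overlapped. The B6 mean was 16.47 ± 0.10 (SD, n = 4), and the BTBR mean was 16.04 ± 0.45 (SD, n = 4). The difference was -0.43 with an SE of 0.20 and an adjusted p of 0.29 in limma, a BTBR level 0.743 times that of B6 with a 95% interval from 0.545 to 1.01. Slide 1 gave -0.84 and slide 2 gave -0.02, with an adjusted p of 0.41 for the difference between slides in limma. Without BTBR replicate 3 it was -0.61 and passed the threshold, with an adjusted p of 0.036 in limma. Within slide 1, where the spread was estimated from the arrays of both slides, the adjusted p in limma was 0.016.

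The other Camk2a probe, A_51_P343218, is assigned to NM_009792, spans a splice junction and was near the dim end of the array, well above background on 3 arrays of each strain. Its B6 arrays read 8.15, 8.01, 8.10 and 8.05 and its BTBR arrays 8.29, 8.08, 8.0 and 8.20. The groups overlapped, with a difference of 0.07 and an SE of 0.08 (adjusted p = 0.73 in limma). The 2 probes of Camk2a therefore differed in the sign of their mean difference, and neither passed the test.

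The beta subunit gene Camk2b, whose product binds actin in dendritic spines, was tested on the probe A_51_P318933 at chr11:5869835-5869894. It read 16.82, 16.49, 16.61 and 16.77 in B6 and 16.34, 16.51, 16.87 and 16.71 in BTBR. The highest and the lowest arrays were both BTBR arrays, and the difference was -0.06 with a 95% interval from -0.35 to 0.22 (adjusted p = 0.84 in limma). The dim Camk2b probe A_51_P376776 read between 7.69 and 7.96 on the 8 arrays.

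The delta subunit gene Camk2d had 4 tested probes, and on all of them BTBR replicate 1 was the highest of the 8 arrays. The probe A_52_P188261 at chr3:126545798-126545857 read 10.19, 10.46, 10.16 and 9.74 in B6 and 11.23, 10.30, 9.78 and 10.22 in BTBR. The other 3 BTBR arrays lay within the B6 range, and the mean difference was 0.24 with an SE of 0.29 (adjusted p = 0.73 in limma). The splice-spanning probe A_51_P510817, whose sequence is printed above, read 9.39, 9.73, 9.42 and 9.31 in B6 and 10.15, 9.76, 8.91 and 9.63 in BTBR, so that BTBR arrays were at both ends. The probe A_52_P428745 at chr3:126547685-126547744 read 12.85, 13.04, 12.56 and 12.02 in B6 and 13.57, 12.78, 12.10 and 12.54 in BTBR. The dimmest tested Camk2d probe, A_52_P266562, read from 8.19 to 8.56 in B6 and from 8.02 to 8.71 in BTBR. The 4 probes agreed on which BTBR arrays were highest and lowest, replicate 1 and replicate 3. Their differences were between 0.03 and 0.24, with adjusted p between 0.73 and 0.95 in limma. Without BTBR replicate 1 all 4 differences turned negative, between -0.14 and -0.03, and all had an adjusted p of at least 0.80 in limma. The untested probe A_52_P169412 read from 7.64 to 8.01 in B6 and from 7.68 to 8.70 in BTBR, where replicate 3 was the array that was well above background.

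The gamma subunit gene Camk2g, whose product carries calcium/calmodulin from the membrane toward the nucleus, was set apart by 1 array. The probe A_51_P132849 at chr14:21554205-21554264 read 15.18, 15.04, 14.88 and 14.79 in B6 and 15.23, 15.05, 13.34 and 15.11 in BTBR. BTBR replicate 3 was far below the other 7 arrays, which lay between 14.79 and 15.23. The difference was -0.30 with a 95% interval from -1.16 to 0.57 (adjusted p = 0.76 in limma), and without BTBR replicate 3 it was 0.15 (adjusted p = 0.44 in limma).

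The inhibitor gene Camk2n1 encodes a small protein that binds active CaMKII and blocks its catalytic site. The probe A_52_P64687 at chr4:138013368-138013427 read 15.06, 15.43, 15.01 and 14.69 in B6 and 15.58, 15.75, 15.02 and 15.09 in BTBR. The 2 highest arrays were BTBR replicates 1 and 2, and the other BTBR arrays lay within the B6 range. The difference was 0.31 with an SE of 0.20 (adjusted p = 0.48 in limma), a BTBR level 1.24 times that of B6 with a 95% interval from 0.906 to 1.7.

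Camk1 encodes a cytoplasmic kinase of the cascade that acts on axon growth and dendrite formation. The probe A_51_P106259 read 10.41, 10.97, 10.54 and 10.54 in B6 and 11.64, 10.89, 9.95 and 10.67 in BTBR. The probe A_51_P106263 read 9.88, 10.31, 10.18 and 9.92 in B6 and 10.81, 10.22, 9.75 and 9.95 in BTBR. On both probes BTBR replicate 1 was the highest and BTBR replicate 3 the lowest of the 8 arrays, and these were also the highest and the lowest BTBR arrays on the tested Camk2d probes. The differences were 0.17 with an SE of 0.31 and 0.11 with an SE of 0.21, with adjusted p of 0.83 and 0.85 in limma. They were 0.57 and 0.41 on slide 1 and -0.24 and -0.20 on slide 2, and without BTBR replicate 1 they were -0.11 and -0.10.

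Camk4 encodes the nuclear kinase of the cascade and lies, like Camk2a, on chromosome 18. Its probe A_52_P672960 read 12.66, 13.26, 12.95 and 12.78 in B6 and 13.16, 13.91, 13.19 and 12.59 in BTBR. The probe A_52_P94516 read 11.49, 12.24, 11.65 and 11.61 in B6 and 11.82, 12.66, 12.06 and 11.53 in BTBR. The probe A_52_P191278, for which no RefSeq transcript is listed, read 8.95, 8.95, 8.81 and 8.53 in B6 and 8.98, 9.47, 9.00 and 8.76 in BTBR. On all 3 probes BTBR replicate 2 was the highest array and the groups overlapped. The differences were 0.30, 0.27 and 0.24 in that order, with SEs of 0.25, 0.25 and 0.16 and adjusted p of 0.61, 0.65 and 0.48 in limma.

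The kinase kinase genes differed in the sign of their mean difference. Camkk1 was read by the probe A_51_P208330 at chr11:72855450-72855509, with 16.16, 15.75, 15.91 and 16.06 in B6 and 15.21, 15.32, 16.14 and 16 in BTBR. BTBR replicates 1 and 2 were below all B6 arrays, and BTBR replicates 3 and 4 were within the B6 range. The difference was -0.30 with an SE of 0.21 (adjusted p = 0.52 in limma). It was -0.69 on slide 1, where it passed the threshold with an adjusted p of 0.032 in limma, and 0.08 on slide 2. The difference between slides had an adjusted p of 0.43 in limma. The split between BTBR replicates 1 and 2 and the others was also the split between slides, so that slide and mouse cannot be told apart within BTBR.

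Camkk2, whose product also phosphorylates AMP-activated kinase, was read by 2 probes on chromosome 5. The probe A_51_P246411 at chr5:123183355-123183414 read 12.95, 13.02, 12.64 and 12.65 in B6 and 13.18, 13.43, 12.99 and 12.76 in BTBR. The probe A_51_P442016 at chr5:123181525-123181584 read 14.67, 14.98, 14.65 and 14.51 in B6 and 15.14, 15.30, 14.22 and 14.68 in BTBR. BTBR replicates 1 and 2 were the 2 highest arrays on both probes, and BTBR replicate 3 was the lowest array on the second only. The differences were 0.28 with an SE of 0.15 and 0.13 with an SE of 0.22 (adjusted p of 0.39 and 0.82 in limma), and the second was -0.02 without BTBR replicate 2.

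Nrgn was the member with the narrowest spread. The probe A_51_P171832 at chr9:37352101-37352160 on the minus strand, assigned to NM_022029, read 18.03, 18.00, 17.97 and 17.99 in B6 and 17.75, 17.90, 17.82 and 17.76 in BTBR. All 4 BTBR arrays were below all 4 B6 arrays, and the means were 18.00 ± 0.02 (SD, n = 4) and 17.81 ± 0.07 (SD, n = 4). The difference was -0.19 with an SE of 0.06, and the adjusted p of 0.10 in limma missed the threshold. The BTBR level was 0.877 times that of B6, with a 95% interval from 0.80 to 0.962. The exact two-sided permutation test gave p = 0.0286, the smallest that 4 arrays against 4 allow. The difference was -0.19 on each slide.

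The strains overlapped on Nrgn with the processed signal of the software, an alternative that changed both the signal and its scaling. The part of each change in the overlap was not tested. With median centring in place of quantile normalization, 1 of the 18 member probes was still without overlap. With the signal that the scanner software had itself background subtracted and detrended, taken relative to the 75th percentile of each array, the B6 arrays read 7.10, 6.89, 6.97 and 6.97 and the BTBR arrays 6.54, 6.85, 7.14 and 6.85. On that scale BTBR replicate 3 was the highest of the 8 arrays, the groups overlapped, and the difference was -0.13 with an adjusted p of 0.65 in limma. The probe was called under none of the scalings tried, and with limma's trend and robust options on the first scale the adjusted p was 0.042. No probe on these arrays was saturated.

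**Figure D2:**
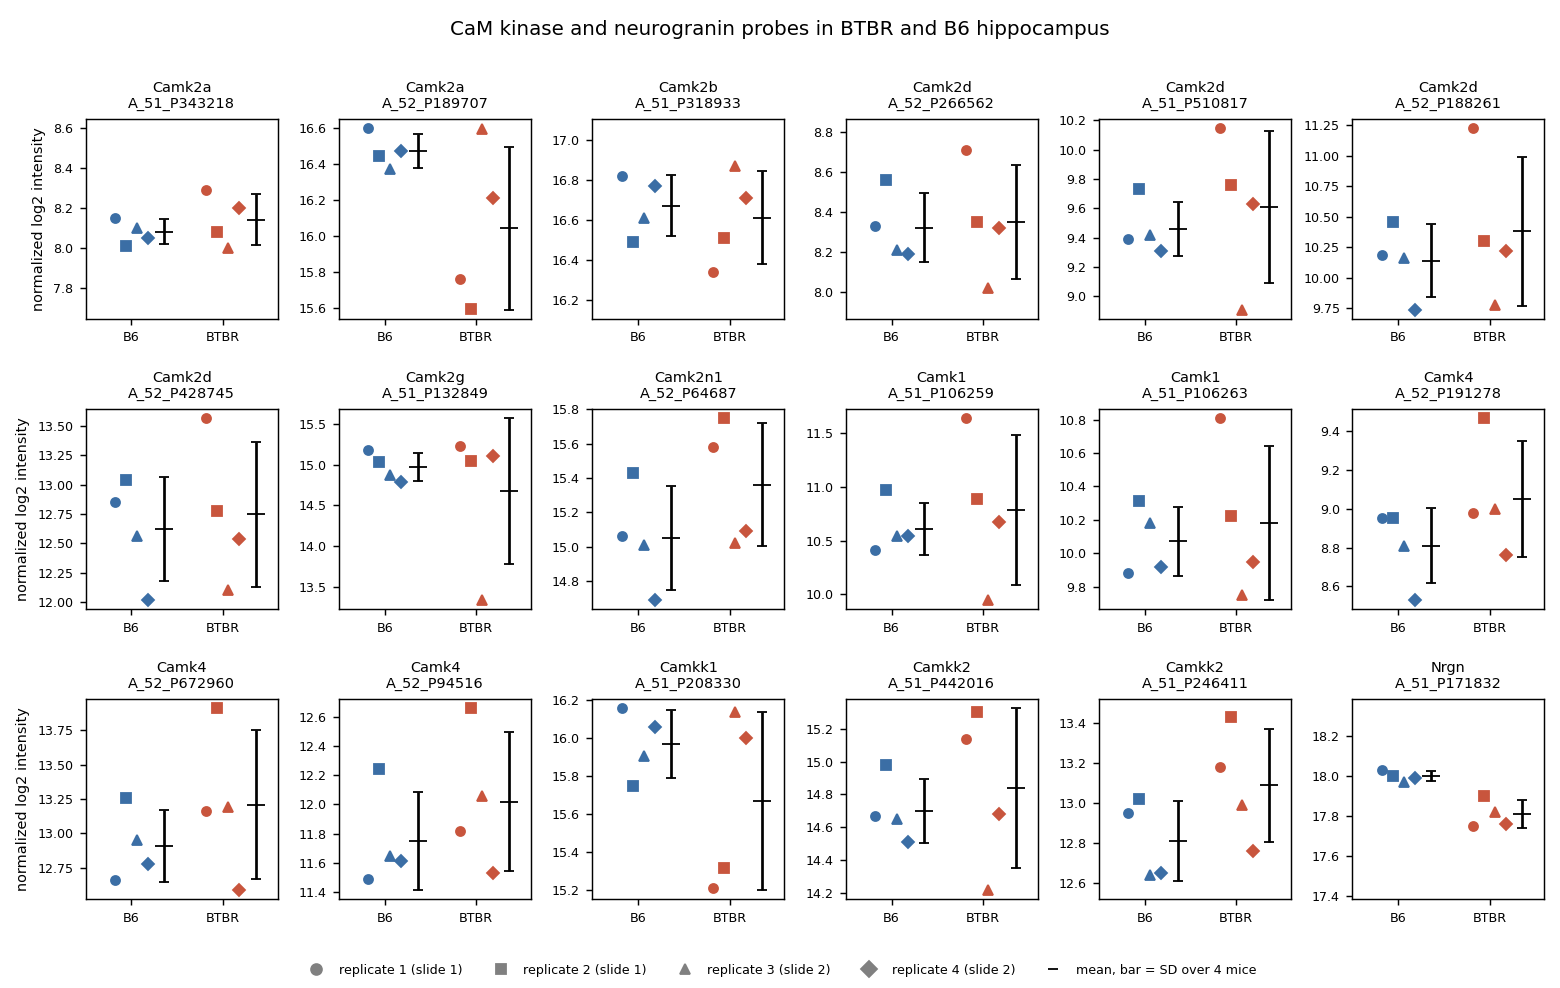
Normalized log2 intensity (vertical axis, a scale of its own for each panel) of the 18 tested probes on the 4 B6 and 4 BTBR arrays, with a symbol for each replicate and black bars for mean ± SD. The strains are apart only in the Nrgn panel, and the BTBR SD is the larger in every panel.

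The spread between mice was larger in BTBR than in B6 for 18 of the 18 tested member probes. Over all tested probes 66.7% had the larger SD in BTBR, and the median ratio of the SDs was 2.05 for the members and 1.37 for all tested probes. Among the 138 tested probes of the calmodulin pathway list described below, 105 (76.1%) had the larger SD in BTBR. This measure was chosen after the values were seen and has no test. With BTBR replicates 1 and 2 left out, 11 of the 18 member probes had the larger SD in BTBR. That BTBR SD rests on 2 arrays, against 4 in B6, so the count does not show whether replicates 1 and 2 carry the spread. Of the 18 tested probes the highest array was BTBR replicate 1 for 8, BTBR replicate 2 for 6, B6 replicate 1 for 3 and BTBR replicate 3 for 1. The lowest was BTBR replicate 3 for 7, B6 replicate 4 for 4 and BTBR replicate 1 for 3, and 4 other arrays were the lowest for 1 probe each.

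BTBR replicates 1 and 2 also stood apart in the markers of other tissue, while the thalamus and choroid plexus sums of BTBR replicate 3 lay within the B6 range. All 12 markers of hippocampal excitatory neurons were measured in both strains so that the labeled tissue has its markers, and limma called 0 of them. Their summed linear level was between 112600 and 149300 in B6, and in BTBR it was 91360 and 88320 on replicates 1 and 2 and 164900 and 142200 on replicates 3 and 4. The 8 thalamus markers, which include Prkcd and Tcf7l2, summed to between 12830 and 16300 in B6, to 106000 on BTBR replicate 1 and to between 14020 and 18860 on the other BTBR arrays. The 6 striatum markers on the array, which include Drd2 and Rgs9, summed to between 15700 and 31100 in B6, with replicate 2 the highest, to 76110 on BTBR replicate 2 and to between 13240 and 23000 on the other BTBR arrays. The 6 choroid plexus markers, Ttr among them, summed to between 15940 and 46090 in B6 and to 77140 and 73360 on BTBR replicates 1 and 2, against 21350 and 18400 on replicates 3 and 4. The 8 inhibitory neuron markers summed to 359200 on BTBR replicate 2 and to 172100 on BTBR replicate 3, above and below the B6 range of 207000 to 253200. On BTBR replicate 2 the markers Slc32a1, Gad1, Gad2, Pvalb and Npy were above every B6 array. Sst and Vip were below every B6 array there, and Lhx6 was within the B6 range. The 8 oligodendrocyte markers summed to 492200 and 577100 on BTBR replicates 1 and 2, above the B6 range of 369500 to 413900, and to 305500 on BTBR replicate 4, below it. The 8 astrocyte markers summed to 490100, 380000 and 474300 on BTBR replicates 1, 3 and 4, below the B6 range of 499800 to 525400. On BTBR replicate 1 the markers S100b and Aldh1l1 were above every B6 array, while Slc1a2, Slc1a3 and Gfap were below every B6 array. The markers that limma called were Gfap of the astrocyte list, with a difference of -1.30, and Cx3cr1, C1qb and Itgam of the microglia list, with 1.41, -1.01 and -0.40. Every listed marker on the array passed the filter on dim probes. In tissue RNA, fewer cells of a type and less RNA per cell cannot be told apart.

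The array with the highest thalamus markers was therefore the array with the highest Camk1 and Camk2d, and the array with the highest striatum markers was the array with the highest Camk4, Camk2n1 and Camkk2. The first of these arrays, BTBR replicate 1, was also the highest for the choroid plexus markers. The second, BTBR replicate 2, was also the highest for the inhibitory neuron, oligodendrocyte and microglia markers. Camk2a A_52_P189707 and Camkk1 were lowest on the pair of arrays with the lowest excitatory neuron markers. The part of these markers in the member values was not tested. With BTBR replicates 1 and 2 left out, limma again called 0 of 18 member probes, the Camkk1 difference was 0.10, the differences of the 4 Camk2d probes were between -0.30 and -0.14, and that of Nrgn was -0.21 with an adjusted p of 0.16 in limma.

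**Figure D3:**
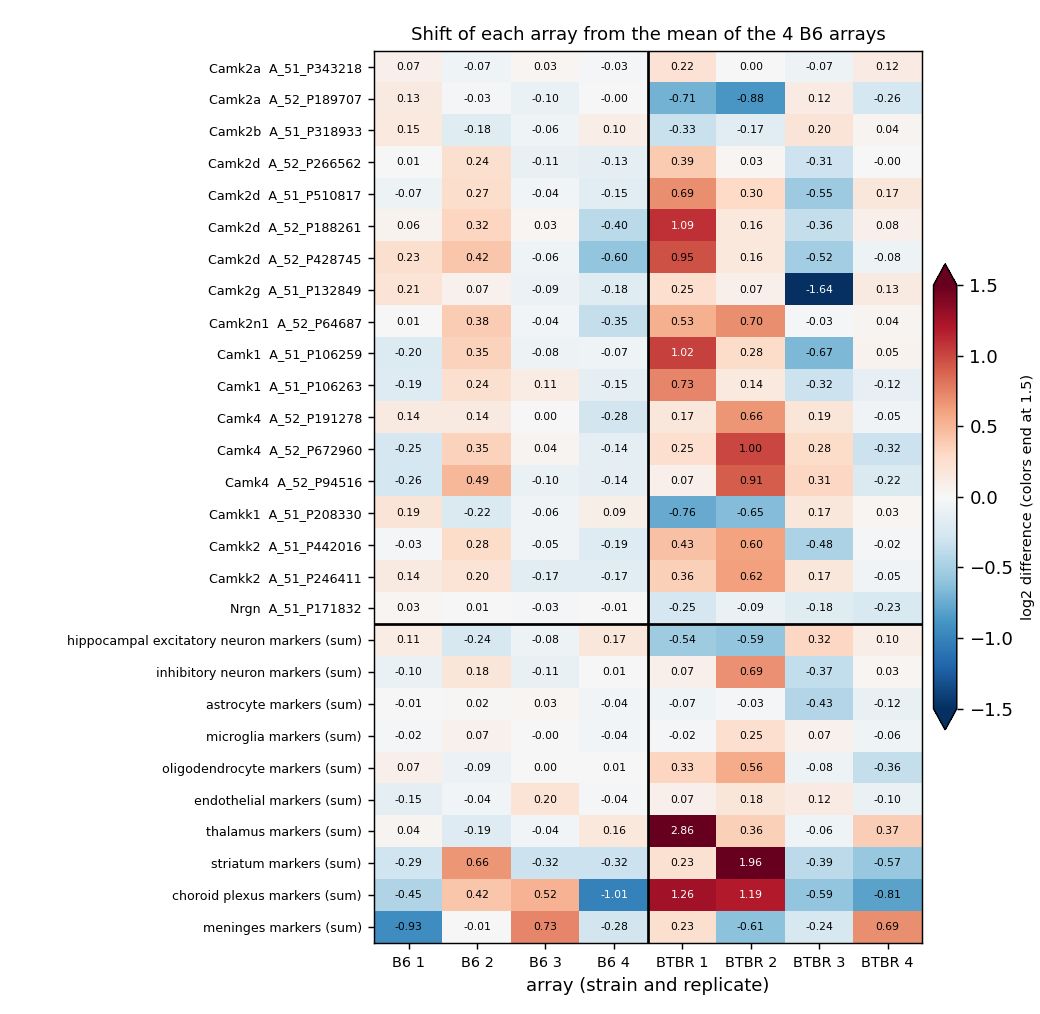
Shift of each array (columns) from the mean of the 4 B6 arrays, in log2 units, for the 18 tested probes and, under the black line, for the summed level of 10 marker lists (rows). BTBR replicate 1 is raised for Camk1, Camk2d and the thalamus markers (2.86), BTBR replicate 2 for Camk4 and the striatum markers (1.96), and BTBR replicate 3 is lowered for Camk2g (-1.64).

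The rest of the calcium/calmodulin pathway was described with a list of 69 genes in 9 groups, of which 67 were on the array and 66 had at least 1 of 138 tested probes. Limma called 2 of the 138 probes, 1 higher and 1 lower in BTBR, which is below the 7.61% of all probes. They were a probe of Calm3, which encodes calmodulin, and the probe of Itpka, which encodes an actin-binding kinase of inositol trisphosphate in dendritic spines. The rank product called 2 of the 138 probes, those of Itpka and of Calml4, against 3.94% of all probes. The median difference over the 138 probes was -0.01, with 67 higher and 71 lower.

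Among the calmodulin genes, Calm3 was called on 1 of its 3 probes. The Calm3 probe A_52_P1157979 read 15.07, 15.00, 14.88 and 15.23 in B6 and 15.50, 15.28, 15.83 and 15.63 in BTBR, so that the BTBR arrays were all above the B6 arrays. Its difference was 0.51 with an SE of 0.12 (adjusted p = 0.038 in limma), while the other Calm3 probes, A_51_P384499 and A_52_P140356, gave -0.16 and 0.44 with adjusted p of 0.51 and 0.43 in limma. The call was lost without B6 replicate 1, 2 or 3 and without BTBR replicate 1, 3 or 4, with adjusted p between 0.060 and 0.12 in limma, while the difference stayed between 0.42 and 0.60 with any array left out. The 2 Calm2 probes gave -0.08 and -0.11, with adjusted p of 0.83 and 0.42 in limma. Of the Calm3 probes, 2 were higher in BTBR by a like amount, 1 of them with a call, and the remaining probe had the opposite sign.

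Calml4, which encodes a calmodulin-like protein, read 10.34, 11.23, 11.27 and 10.92 in B6 and 12.75, 12.72, 11.92 and 10.72 in BTBR on its probe A_52_P367760. BTBR replicates 1 and 2 were the highest, as for the choroid plexus and the oligodendrocyte markers, and BTBR replicate 4 was within the B6 range. BTBR replicate 3 was also above every B6 array, while its choroid plexus and oligodendrocyte sums lay within the B6 range. The part of these markers in the Calml4 values was not tested. The difference was 1.09 with an adjusted p of 0.21 in limma and a pfp of 0.0066 in the rank product. It was 1.95 on slide 1, where it passed the threshold (adjusted p = 0.033 in limma), and 0.23 on slide 2. Without BTBR replicate 4 it was 1.53 and also passed, with an adjusted p of 0.014 in limma. Calml3 was not well above background on enough arrays to be tested.

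Itpka on its probe A_51_P273609 read 17.34, 17.06, 17.21 and 17.34 in B6 and 15.80, 16.14, 16.77 and 16.80 in BTBR. All BTBR arrays were below all B6 arrays, and BTBR replicates 1 and 2, which had the lowest excitatory neuron markers, were the lowest. On BTBR replicates 3 and 4 the summed excitatory neuron markers were above and within the B6 range. The part of these markers in the Itpka values was not tested. The difference was -0.86 with an SE of 0.21, an adjusted p of 0.043 in limma and a pfp of 0.015 in the rank product. It was -1.23 on slide 1 (adjusted p = 0.0036 in limma) and -0.50 on slide 2 (adjusted p = 0.16 in limma). Without BTBR replicates 1 and 2 it was -0.46 and still called, with an adjusted p of 0.040 in limma. The call was lost without any of the 4 B6 arrays and without BTBR replicate 1 or 2, with adjusted p between 0.057 and 0.12 in limma, and the direction stayed negative in each case.

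**Figure D4:**
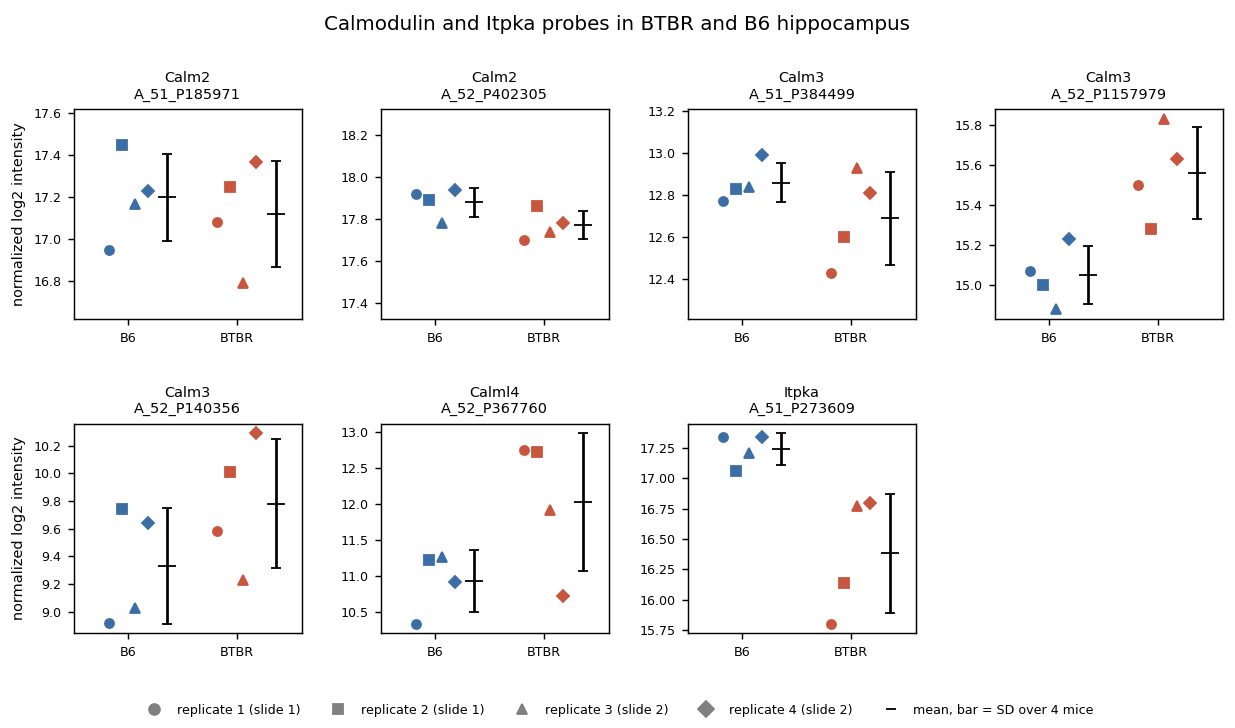
Normalized log2 intensity (vertical axis, a scale of its own for each panel) of 7 calmodulin and Itpka probes on the 4 B6 and 4 BTBR arrays, with a symbol for each replicate and black bars for mean ± SD. The strains do not overlap for Calm3 A_52_P1157979 and Itpka, and they overlap for the other probes shown.

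In the other groups limma called 0 probes, and the closest to the threshold were 4 probes given here as examples. The death-associated kinase gene Dapk1 differed by -0.53 on A_52_P37826, its 1 tested probe (adjusted p = 0.092 in limma), and its arrays did not overlap. Stk11, which encodes the kinase LKB1, differed by 0.29 on A_51_P167754 (adjusted p = 0.11 in limma), also without overlap. Among the calcineurin genes, Ppp3cb, a catalytic subunit, differed by -0.31 on A_51_P256818 (adjusted p = 0.11), and Rcan1, a regulator of calcineurin, by 0.24 on A_52_P617327 (adjusted p = 0.17), both in limma. The other 3 tested probes of Ppp3cb gave -0.07, -0.13 and 0.13 (adjusted p = 0.83, 0.69 and 0.57 in limma), and the other Rcan1 probe, A_51_P182116, gave 0.37 (adjusted p = 0.46 in limma). Over the 112 tested probes of the 7 groups with no call, 7 had an unadjusted limma p under 0.05, against 18.5% of all probes, and the rank product called 0, against 3.94%.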

How the data were processed

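Hippocampal RNA of 4 B6 and 4 BTBR mice was measured on 8 single-color arrays, and the labels' strain set the groups. The authors used RNA with a high integrity number and the scanned images were read by Agilent Feature Extraction, which the file headers give as 10.7.3.1 and the submitters' processing notes as 9.1. The deposited spot intensities are not scaled between arrays. The deposited matrix of log2 values was made by the authors with Agi4x44PreProcess defaults, quantile normalization and a median for replicate spots, and it was used as an alternative.

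Here the local background median was subtracted from the mean intensity, with a floor of 0.5 and an offset of 50, and quantile normalization of the log2 values used limma 3.58.1 in R 4.3.3. Control probes and 154 probes flagged as outliers on an array were left out, and a probe was tested when well above background on at least 75% of the arrays of a strain. Per array, 56.8% to 71.9% of the probes were well above background, and precision is limited by there being 4 arrays a strain. Limma fitted strain alone on all 27982 tested probes, with Benjamini-Hochberg adjusted p under 0.05 called. The rank product used 100 permutations of probes within arrays. The scripts were tested on simulated data.

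All probes of the 10 genes are named, as are calmodulin genes, every reported pathway gene that limma called and 4 uncalled genes. The members and the lists were chosen with earlier results of these data known, and some genes of the lists are not reported here and are in none of the counts of those lists. No gene was compared by likeness of profile, since no member was called. The alternatives were the processed signal of the software scaled to the 75th percentile per array, background correction by normexp, the deposited matrix, median centring, other filters on dim or flagged probes, 1 median value per gene, the replicate number or slide as a block, limma with trend and robust options, each array left out in turn, each slide alone, and a stricter pfp of 0.01. Leaving out BTBR replicates 1 and 2 together, the pathway counts within each slide, the alternatives to the counts of non-overlapping probes and of all probes, and the comparison of SDs were added after seeing the data. Drawings used Python 3.11.15 and matplotlib 3.10.9.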

Additional observations from a re-analysis of the deposited data

Results flagged for a closer look

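In the BTBR group, Camk2g on its probe A_51_P132849 had 1 array far from the others. BTBR replicate 3 read 13.34, and the other BTBR arrays read 15.23, 15.05 and 15.11. The gap to the nearest of them took up 0.904 of the whole range of the group, above Dixon's 95% critical value for 4 samples. Over the 40 groups of 4 arrays that were examined for the member probes, 1 was set apart in this way, where chance gives about 1 in 20 groups, or 2 of 40.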

How the results depend on the processing

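Limma called 1 member probe with trend and robust options (Nrgn) and 2 within slide 1 (Camk2a A_52_P189707 and Camkk1), and between 0 and 1 with an array left out in turn, the 1 being Camk2a A_52_P189707 without BTBR replicate 3. It called 0 under every other alternative, and the rank product called 0 wherever it was run. Member probes without overlap between strains numbered 0 with the processed signal and between 1 and 2 with an array left out. The larger SD in BTBR was found for between 16 and 18 member probes with an array left out. It was found for 11 of 18 without BTBR replicates 1 and 2, where the BTBR SD rested on 2 arrays. Pathway calls by limma, 2 of 138 probes, numbered 0 with the processed signal, 0 with the replicate block, 1 with median centring, 1 with no filter on dim probes, 1 with 1 median value per gene, 4 with slide as a block, between 0 and 4 with an array left out, 16 within slide 1 (33 at an unadjusted p under 0.05) and 0 within slide 2 (7 at an unadjusted p under 0.05), where limma called 2422 and 1036 of all 27982 probes. Over all probes limma called 2129, against 2040 with the processed signal, 1650 with the replicate block, 1922 with median centring, 2003 with no filter, 2330 with slide as a block, 1430 genes with 1 median value per gene, and between 1487 and 2182 with an array left out. The 1 call with 1 median value per gene was Itpka (adjusted p = 0.046 in limma), and Calm3 then took the value of its probe A_51_P384499, -0.16 (adjusted p = 0.50). Of 21 alternatives, the call on Calm3 A_52_P1157979 was lost under 11 and that on Itpka under 10, both of them with the processed signal (adjusted p = 0.18 and 0.14 in limma).

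Of the single differences, 462 of 523 values under alternatives kept their sign and their side of the threshold. Those that turned sign did so as follows. With the processed signal, Camk2d A_52_P266562 was -0.019. Within slide 1, Camk2g was 0.025. Within slide 2, Camk2b was 0.10, Camk2d A_52_P266562 -0.031, Camk2d A_51_P510817 -0.091, the Camk1 probes -0.24 and -0.20, Camkk1 0.083 and Camkk2 A_51_P442016 -0.13. Without BTBR replicates 1 and 2, Camk2b was 0.12, the Camk2d probes A_52_P266562, A_51_P510817, A_52_P188261 and A_52_P428745 were -0.16, -0.19, -0.14 and -0.30, the Camk1 probes -0.31 and -0.22, Camk4 A_52_P672960 -0.019, Camkk1 0.10, Camkk2 A_51_P442016 -0.25 and Calm3 A_51_P384499 0.015. With an array left out in turn, the ranges that crossed 0 were -0.15 to 0.024 for Camk2b, -0.095 to 0.14, -0.025 to 0.39, -0.040 to 0.45 and -0.14 to 0.35 for the Camk2d probes in the same order, -0.48 to 0.15 for Camk2g, -0.11 to 0.45 and -0.10 to 0.25 for Camk1, -0.022 to 0.34 for Camkk2 A_51_P442016 and -0.16 to 0.030 for Calm2 A_51_P185971. The cause was not tested.

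Same-numbered mice of the strains deviated with correlations of -0.14, 0.51, -0.10 and 0.39 across probes. The values 0.51 and 0.39 were the largest of any B6 and BTBR pair, but not every array correlated best with its own number. Correlations of deviations from a mean of so few arrays cannot settle whether the numbers pair the mice. With the replicate block limma called 0 member probes. Probes near the background, such as Camk2a A_51_P343218, bound what these arrays can show.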
